A study of Mus musculus with 11 samples.

Results

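Genes of the transforming growth factor beta (TGF-β) pathway were followed in sorted mouse thymocytes with and without the RNA-binding protein Arpp21: the ligand Tgfb1, the receptors Tgfbr1, Tgfbr2 and Tgfbr3, the signal transducers Smad2, Smad3, Smad4 and Smad7, and the corepressors Ski and Skil. The rule names the genes for their place in the pathway and uses no measured value, although it was set with earlier results of these data known. They are 10 of the 35975 genes in the files, and all 10 were among the 13780 genes that passed the filter on low counts. RNA-seq libraries came from CD4- and CD8-depleted thymus sorted by CD44 and CD25 into the double-negative stages DN2 and DN3. WT cells gave 3 libraries at each stage, and Arpp21-/- cells, called knockout below, gave 2 at DN2 and 3 at DN3, which makes 11. The labels give C57BL/6J as the strain of all libraries, and mice of both sexes were age matched. The Arpp21-/- allele was 1 line made by excising an exon with CRISPR in C57BL/6N zygotes. It shifts the frame of the long, RNA-binding isoform, whereas the microRNA hosted by the gene remains. The study also reports higher levels of a short isoform of the protein in Arpp21-/- thymocytes. Age and treatment per library were not given in the sources used here, and no label says which libraries shared a mouse, so p-values measure the spread between libraries.

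TGF-β is secreted in a latent form and, once released, brings a type II receptor (Tgfbr2) and a type I receptor (Tgfbr1) together. Tgfbr1 then phosphorylates the receptor Smads, Smad2 and Smad3, which enter the nucleus with the common Smad, Smad4. Smad7 inhibits the receptors and Ski and Skil repress Smad targets, while Tgfbr3, or betaglycan, presents ligand to the receptors. In the thymus the pathway is known for restraining the cycling of immature thymocytes and for its part in making regulatory and unconventional T cells. Arpp21 is known to bind uridine-rich sequence in 3′ untranslated regions (UTRs).

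Before the results, 2 libraries have to be set apart. Libraries held 14531762 to 63109504 estimated counts. Replicate 2 of the knockout DN2 and replicate 3 of the knockout DN3 libraries had scaling factors of 0.599 and 0.861, against 1.03 to 1.11 in the other 9. Both were short of long transcripts. In knockout DN2 replicate 2, the longest of 3 equal classes of genes (transcripts of at least 3438 nt) had a median of −1.87 on the log2 scale against the other DN2 libraries, and the shortest class had 1.33. In knockout DN3 replicate 3 these medians were −0.90 and 0.63. Of the 10 genes, 8 have a mean transcript length in the longest class. For many results that rest on these libraries, values without them are given too. The summed level of Arpp21, the targeted gene, does not measure the loss of 1 exon. It was 386, 336 and 312 CPM (counts scaled to library size) at DN3 in WT cells, against 335, 221 and 142 CPM in knockout cells, so the groups overlapped. The summed CPM of 7 DN3 markers (Ptcra, Rag1, Rag2, Notch3 and others) was 2390 to 3165 in DN2 and 6076 to 7093 in DN3 libraries, as the stage labels say. In DN2 libraries most of the sum was Lck and Il2ra. In knockout DN2 replicate 2 Lck was at 2311 CPM, against 1122 to 1181 CPM in WT DN2 cells, and Il2ra at 144 CPM. Ptcra, Rag1 and Notch3 were at 11.7, 1.36 and 9.97 CPM in that library, below every DN3 library. Il2ra, on both stage lists, overlapped between WT DN2 (1038 to 1671 CPM) and WT DN3 (1081 to 1678 CPM). The sum of 8 DN2 markers did not separate the WT stages (2434 to 3179 CPM in DN2 and 2754 to 3317 CPM in DN3). Of the 8, Kit, Cd44 and Il7r were lower in WT DN3 than in WT DN2 cells, and Tcf7 and Mpzl2 higher. In knockout DN2 replicate 2 the sum was only 418 CPM, against 2879 CPM in replicate 1. Every gene of the list except Mpzl2 (40.3 CPM) was below all WT DN2 libraries there, such as Kit at 66.6 and Gata3 at 21.9 CPM. Among markers of other cells, NK cell genes summed to at most 3.37 CPM, B cell genes to at most 71.9 CPM, nearly all of it Cd79b, with Pax5 at 0 in every library, and myeloid genes to 114 to 357 CPM in DN2 and 29.9 to 47.6 CPM in DN3. Their part in the results below was not tested. In bulk samples, fewer cells of a type and less RNA per cell cannot be told apart.

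The uridine content of the 3′ UTRs is shown first, because it is the feature that Arpp21 is known to bind and because the genes differ widely in it. For each gene the 30-base window with the most U was taken from the 3′ UTR of the coding transcript with the most estimated counts (GRCm38, GENCODE). Windows are written 5′ to 3′ as DNA, with T, which is U in the RNA, in capitals. Tgfbr1 is shown as the receptor with the clearest values in the libraries, Skil, Tgfbr3 and Ski as 3 of the genes with a run of at least 9 U, and Tgfb1 as the contrast.
Tgfbr1: TgTTTTgTTTTgTTTTgaTTTTTcTTTTTT
Skil: cTTaccTTTTTTTTTTTTTTTTTTTTTTcT
Tgfbr3: gTTTTTgTTcTTTTTTTTTTTTTTTaTgcT
Ski: TTTTTTTTTccTTTTgTTTTgTTgTTgTTT
Tgfb1: gcTgTaTTTaaggacaccTgcacccccccT
These windows lie in the 3′ UTR at chr4:47411830-47411859 (plus strand) for Tgfbr1, chr3:31121670-31121699 (plus) for Skil, chr5:107109328-107109357 (minus) for Tgfbr3, chr4:155156412-155156441 (minus) for Ski and chr7:25705010-25705039 (plus) for Tgfb1. The Tgfbr1 window holds 24 U in 30 bases, in short runs of T, and its 3′ UTR of 4154 nt is 34.4% U with no run of U longer than 6. Skil carries 1 run of 22 U. Tgfbr3 has 3 runs of at least 9 U, the longest of 15. The Tgfb1 3′ UTR is only 135 nt long and 8.89% U, and its richest window holds 7 U. In all, 5 of the 10 genes (Ski, Skil, Smad3, Smad7 and Tgfbr3) have a run of at least 9 U, against 23.1% of 12420 expressed genes. Long 3′ UTRs hold such runs more often: among genes within 20% of the length of each of these 5, 28.0% to 53.4% have one. Of genes within 20% of the length of Tgfbr1, which has none, 56.6% have a run and 29.5% a window at least as rich in U. A window is a description of sequence, and binding was not measured in these libraries.

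Tgfb1, the ligand, was higher in the WT DN2 than in the WT DN3 libraries. Its CPM was 151, 149 and 175 in WT DN2 cells, 157 and 18.5 in knockout DN2 cells, 66.9, 67.0 and 61.4 in WT DN3 cells and 44.6, 51.1 and 27.8 in knockout DN3 cells. All 3 WT DN3 libraries were below all 3 WT DN2 libraries, and the one low DN2 library was the Arpp21-/- replicate 2 set apart above. Myeloid markers, which come from cells that also make Tgfb1, summed to 114 to 159 CPM in WT DN2 cells and 29.9 to 36.8 CPM in WT DN3 cells. They were highest, at 357 CPM, in knockout DN2 replicate 2, where Tgfb1 was lowest. The list was split there. Tyrobp, Lyz2 and Fcer1g were at 203, 105 and 47.9 CPM, their highest values. Csf1r and Itgam were at 0.0535 and 0 CPM, against 1.38 to 4.14 and 2.26 to 6.63 CPM in WT DN2 cells. This library is short of long transcripts, and the sums take no account of transcript length. Of the platelet genes, Itga2b was also lower in the later WT stage (19.4 to 25.7 CPM in WT DN2 cells and at most 0.0426 CPM in WT DN3), whereas Pf4 and Ppbp were at 0 in all 6 WT libraries. Of the stroma and endothelium markers, Pdgfrb was at 196, 163 and 179 CPM in WT DN2 and 58.8, 59.0 and 82.5 CPM in WT DN3 cells, and at 33.9 CPM in knockout DN2 replicate 2. Pecam1 was at 149, 84.5 and 129 CPM, 76.6, 54.8 and 84.8 CPM, and 10.5 CPM in the same order. Epcam, on the same list, went the other way, at 2.53, 3.73 and 9.77 CPM in WT DN2 and 23.5, 70.9 and 95.9 CPM in WT DN3 cells. Foxn1, Psmb11, Col1a1, Col1a2, Pdgfra and Cdh5 were at most 0.818 CPM in any library. The part of myeloid, platelet or stromal cells in the Tgfb1 level was not tested.

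Tgfbr1, the type I receptor kinase, was at its highest in WT DN3 cells. The values were 153, 142 and 160 CPM in WT DN2 cells, 121 and 208 CPM in knockout DN2 cells, 305, 264 and 299 CPM in WT DN3 cells and 153, 114 and 181 CPM in knockout DN3 cells. The WT DN3 libraries lay above all the other 8, and the knockout DN3 libraries spanned the WT DN2 values. Between 2096 and 7788 estimated counts per library stand behind these values.

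Tgfbr2, the type II receptor that binds ligand first, varied more within groups than between them. It was at 79.1, 47.7 and 95.6 CPM in WT DN2 cells, 67.7 and 12.1 CPM in knockout DN2 cells, 69.6, 43.2 and 53.5 CPM in WT DN3 cells and 54.6, 36.9 and 21.1 CPM in knockout DN3 cells. The lowest value of each knockout group was that of the library set apart.

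The co-receptor Tgfbr3 had 26.4, 10.5 and 15.4 CPM in WT DN2 cells and 48.5, 35.5 and 36.1 CPM in WT DN3 cells. In Arpp21-/- cells it was at 14.5 and 0.321 CPM in DN2 and at 24.7, 22.8 and 7.91 CPM in DN3. Only 12 estimated counts lay behind the lowest value, in knockout DN2 replicate 2, where 3 counts come to 0.0802 CPM. The 3 WT DN3 libraries were the highest of all, as they were for Tgfbr1.

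The receptor Smads differed in their steadiness. Smad2 stayed between 57.1 and 85.4 CPM in all 11 libraries, with the smallest ratio of highest to lowest value of the 10 genes. Smad3 was at 35.6, 31.2 and 69.5 CPM in WT DN2 cells, 65.3 and 6.01 CPM in knockout DN2 cells, 50.6, 73.3 and 79.4 CPM in WT DN3 cells and 61.2, 76.8 and 37.1 CPM in knockout DN3 cells, and all its groups overlapped. Smad4, the common partner, ran from 6.25 CPM in knockout DN2 replicate 2 to 25.7 CPM in knockout DN3 replicate 3, with 11.2 to 19.1 CPM in WT DN2 cells and 12.5 to 20.2 CPM in WT DN3 cells.

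Smad7, Ski and Skil, which hold the pathway back, had the lowest mean levels per transcript length in WT DN2 and WT DN3 cells (TPM, below). In both knockout DN2 libraries Tgfbr3 (4.15 and 0.109 TPM) was below Smad7 (5.35 and 1.82 TPM). Smad7 was at 4.18, 11.3 and 14.6 CPM in WT DN2 cells, 9.71 and 14.0 CPM in knockout DN2 cells, 4.93, 3.92 and 3.32 CPM in WT DN3 cells and 1.89, 1.63 and 4.28 CPM in knockout DN3 cells. Most DN2 libraries were thus above the DN3 libraries, with 1 WT DN2 library among them. Ski was at 8.32, 9.13 and 9.89 CPM in WT DN2 cells and at 3.58 and 1.87 CPM in knockout DN2 cells, the lower value from the library set apart. It ran from 2.10 to 8.76 CPM over the 6 DN3 libraries. Skil stayed between 5.82 and 13.5 CPM, with all groups overlapping.

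**Figure D1:**
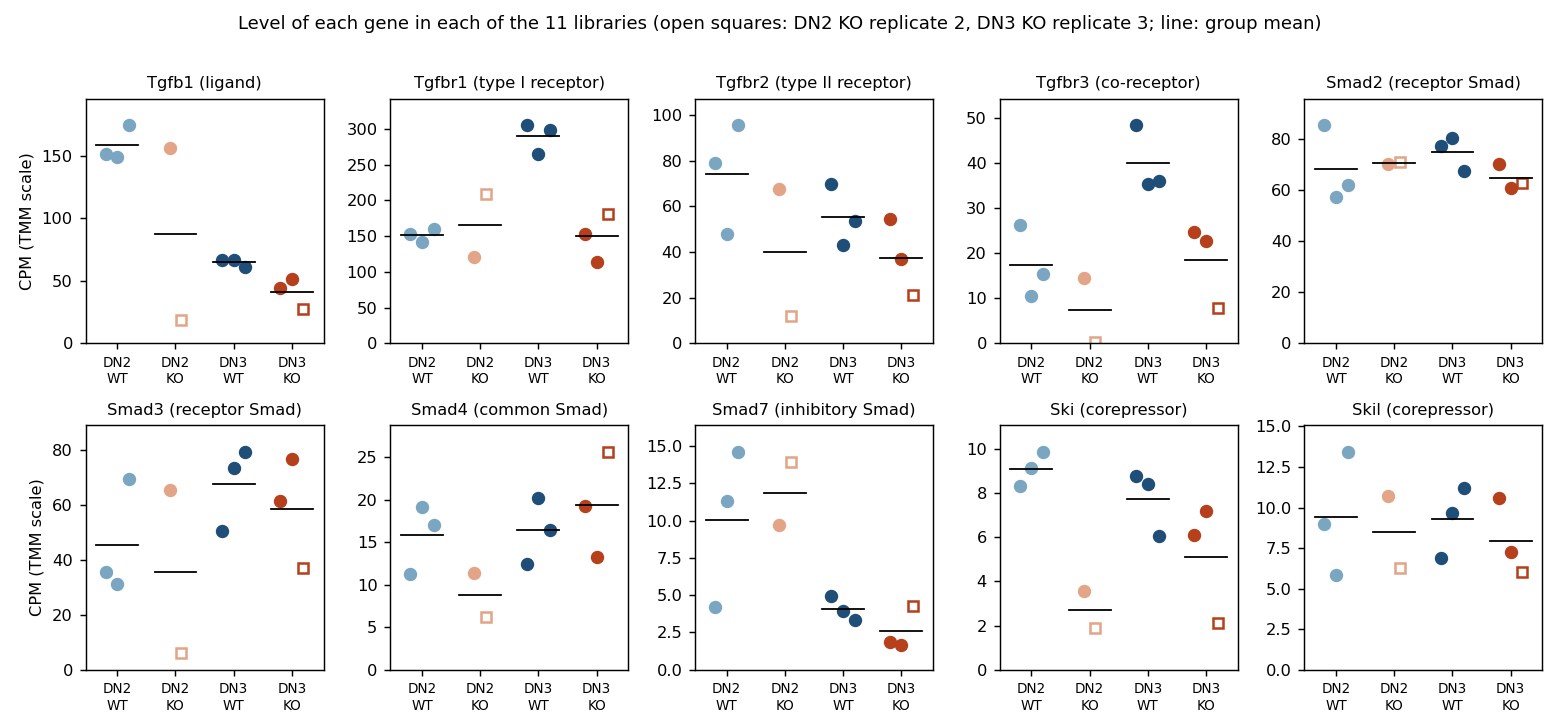
Level of each of the 10 genes in CPM (vertical axis, from 0) in the 11 libraries, by stage and genotype (KO is Arpp21-/-). Points are libraries, lines are group means, and open squares are the 2 libraries short of long transcripts. Tgfbr1 stands highest in the 3 WT DN3 libraries (264 to 305 CPM), and Tgfb1 is at 149 to 175 CPM in 4 of the 5 DN2 libraries.

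Levels of different genes can be compared per transcript length, in TPM (transcript counts scaled for length and depth). In WT DN3, Tgfbr1 was first with 84.8 ± 9.45 TPM (SD, n = 3), followed by Smad2 with 48.4 ± 3.50 TPM and Tgfb1 with 47.9 ± 1.74 TPM, whose libraries overlapped. Smad3 and Tgfbr2 came next with 21.0 ± 5.54 and 17.4 ± 4.89 TPM, also overlapping, then Tgfbr3 with 11.2 ± 1.72 TPM and Smad4 with 9.17 ± 0.632 TPM. Skil, Ski and Smad7 were lowest, at 2.40 ± 0.809, 2.40 ± 0.395 and 2.00 ± 0.383 TPM. In WT DN2 the order began instead with Tgfb1 at 107.6 ± 12.0 TPM, well above Smad2 and Tgfbr1 at 40.7 ± 9.87 and 40.5 ± 4.46 TPM, which overlapped. The share of Tgfbr1 among the TPM of the 3 receptors was 62.0 ± 7.32% in WT DN2 cells and 75.0 ± 2.67% in WT DN3 cells (SD, n = 3). In knockout DN3 it was 66.5% and 66.4% in replicates 1 and 2 and 85.3% in replicate 3, the library set apart. The share of Smad3 in Smad2 plus Smad3 was 24.3 ± 7.72% in WT DN2 cells and 29.9 ± 5.81% in WT DN3 cells, within the spread. Ski made up 54.9 ± 10.1% of Ski plus Skil in WT DN2 cells, and 32.2% and 17.6% in the 2 knockout DN2 libraries, both below the WT range of 45.4% to 65.5%.

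At the level of transcripts, the values rest on few forms. Tgfbr1-201, the 5756 nt transcript with the long 3′ UTR, carried 77.0% to 86.9% of Tgfbr1 TPM in every library, with group means of 83.7 ± 2.72% in WT DN2 cells, 83.0 ± 2.03% in WT DN3 cells and 80.6 ± 4.80% in knockout DN3 cells (SD, n = 3). These differ by less than their spread. Tgfb1-201 carried 84.9% to 99.0% of Tgfb1 and Smad3-201 83.5% to 100% of Smad3. Smad2 was split, with 53.5% in a transcript of 2410 nt and 25.6% in one of 1645 nt on average. Of Ski, 72.7% was assigned on average to Ski-203, a processed transcript that is not annotated as coding, with a range of 1.26% to 100%, so the coding level of Ski is uncertain.

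The first comparison asked whether loss of Arpp21 altered the pathway in DN3 cells. Tested with edgeR (the quasi-likelihood F test, adjusted after Benjamini and Hochberg across the whole table), none of the 10 genes passed an adjusted p of 0.05 in the fit of all 11 libraries, and 1 of all 13780 genes did (0.00726%). At an unadjusted p under 0.05 there were 214 genes, among them 1 of the 10, Tgfbr1. Tgfbr1 changed by −0.95 on the log2 scale (SE 0.268, edgeR adjusted p = 1), from a mean of 289 ± 22.0 CPM in WT DN3 to 150 ± 33.6 CPM in knockout DN3 cells (SD, n = 3). It was the 31st gene by p. Without the 2 libraries set apart it was −1.12 (SE 0.145, edgeR adjusted p = 0.0758), and 5 genes were called. With limma voom and a weight per library, which called 118 genes (0.856%), Tgfbr1 was the only one of the 10 called (log2 fold change −1.18, adjusted p = 0.00198). The study names Tgfbr1 among the mRNAs bound by Arpp21 in thymocytes, from crosslinking and immunoprecipitation (iCLIP) rather than from RNA levels. It also had these libraries in view, so the level of Tgfbr1 here is not independent evidence of its direction.

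Around Tgfbr1, the point estimates in DN3 leaned to lower values. Of the 10 log2 fold changes, 9 were below 0, with a median of −0.58 beside −0.00 over all genes tested, and the median was −0.25 without the 2 libraries. Tgfbr3 was at −1.11 (SE 0.931), Tgfb1 at −0.66 (SE 0.578), Smad7 at −0.65 (SE 0.536), Ski at −0.59 (SE 0.472) and Tgfbr2 at −0.56 (SE 0.575). Smad2, Skil and Smad3 were at −0.22 (SE 0.231), −0.22 (SE 0.418) and −0.21 (SE 0.680), and Smad4 at 0.24 (SE 0.376). The signs of Smad3, Smad4 and Skil turned in other fits. In CPM, 3 of the 10 genes (Tgfb1, Tgfbr1 and Tgfbr3) had every knockout DN3 library below every WT DN3 library, where 5.57% of all genes did, and none had every library above (10.5% of all genes did not overlap in either direction). Tgfb1 became steadier without the 2 libraries, at −0.45 (SE 0.129, edgeR adjusted p = 0.669), still short of a call. In that fit Tgfbr3 was at −0.76 (SE 0.345), Ski at −0.22 (SE 0.278) and Tgfbr2 at −0.28 (SE 0.311), nearer to no change. Smad7 moved further from it, to −1.20 (SE 0.518).

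At DN2, edgeR called no gene between Arpp21-/- and WT at an adjusted p under 0.05 (0% of 13780 tested), although 2020 had an unadjusted p under 0.05 and DESeq2 called 38, none of the 10. Ski had the lowest p of the 10 genes, at −1.74 on the log2 scale (SE 0.560, edgeR adjusted p = 0.336, and 0.0108 unadjusted). Without the 2 libraries it was −1.33 (SE 0.381, edgeR adjusted p = 1), resting on 1 knockout library. Tgfbr1 was at 0.12 (SE 0.296), turning to −0.30 (SE 0.180) without those libraries. It was at −0.61 (SE 0.286) on log2(TPM + 1), a scale on which the median of all genes was −0.45. With an offset for the trend over transcript length it moved up instead, to 1.72 (SE 0.664, edgeR adjusted p = 0.359). Smad4 was at −0.85 (SE 0.432, adjusted p = 0.373) and Smad7 at 0.24 (SE 0.582, edgeR adjusted p = 0.825), the latter turning to −0.03 without the 2 libraries. Both knockout libraries decided these values. Without replicate 1, the library set apart stood alone for its group, with a spread taken from the other groups, and 46.2% of all genes and 6 of the 10 were called, among them Ski (−2.29, edgeR adjusted p = 0.0223) and Smad4 (−1.35, edgeR adjusted p = 0.0495).

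**Figure D2:**
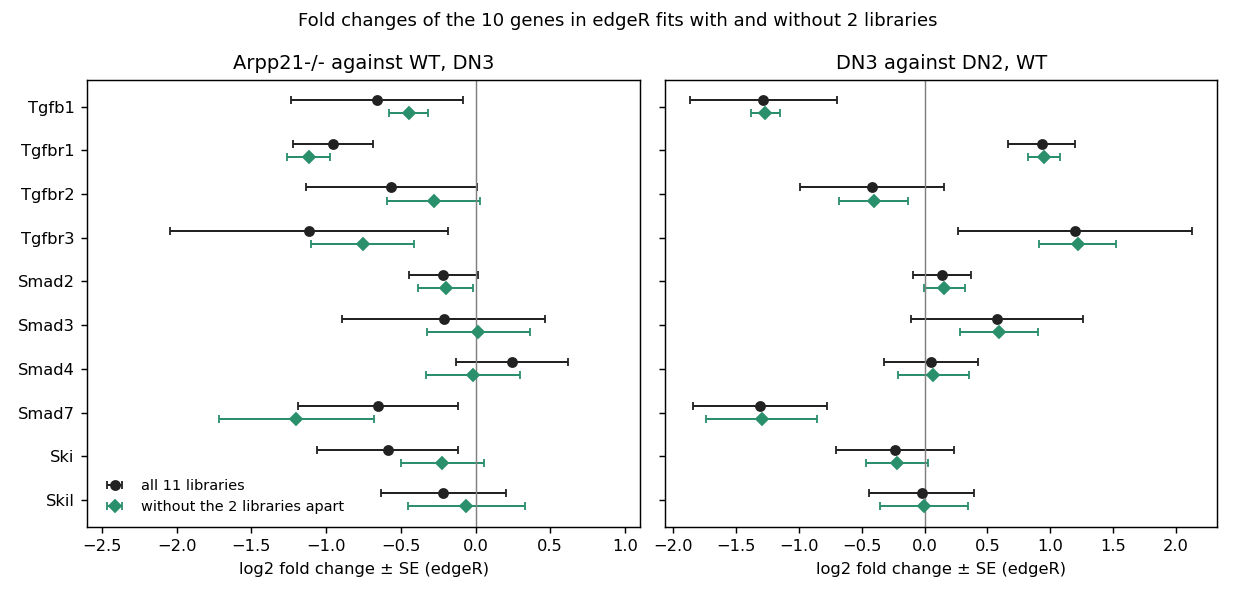
Log2 fold changes with their standard errors (horizontal axis) from edgeR for the 10 genes, in Arpp21-/- against WT DN3 cells (left) and in WT DN3 against WT DN2 cells (right). Circles are fits of all 11 libraries and diamonds fits without the 2 libraries set apart. Tgfbr1 lies at −0.95 on the left and 0.93 on the right.

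The WT libraries alone show how the pathway stood at each stage. Between WT DN2 and WT DN3 cells 562 of 13780 genes (4.08%) were called in the fit of all 11 libraries, and none of the 10. Tgfbr1 came nearest, at 0.93 on the log2 scale (SE 0.268, edgeR adjusted p = 0.0970), from 151 ± 9.03 to 289 ± 22.0 CPM (SD, n = 3). Tgfb1 was at −1.28 (SE 0.584, edgeR adjusted p = 0.379), from 158 ± 13.9 to 65.1 ± 3.17 CPM. Smad7 was at −1.31 (SE 0.535, adjusted p = 0.296) and Tgfbr3 at 1.20 (SE 0.932, edgeR adjusted p = 0.764).

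These calls changed with the libraries and the tool used. Fitted on the 6 WT libraries alone, edgeR called 1946 of 12479 genes (15.6%), among them Tgfb1 (log2 fold change −1.26, SE 0.106, adjusted p = 0.000353), which fell, and Tgfbr1 (0.96, SE 0.101, adjusted p = 0.000928), which rose. Without the 2 libraries set apart, 15.3% of genes were called and so were Tgfb1 (−1.27, adjusted p = 0.000147), Tgfbr1 (0.95, adjusted p = 0.00118) and Tgfbr3 (1.22, SE 0.306, adjusted p = 0.0283). With limma voom and library weights 16.9% of genes and 4 of the 10 were called. Leaving out knockout DN2 replicate 1 or replicate 2 alone was enough for calls of Tgfb1 (edgeR adjusted p of 0.00815 and 0.00767) and Tgfbr1 (0.0164 and 0.0165), with 7.37% of all genes called in each case. DESeq2 over all 11 libraries called Tgfbr1 as well (adjusted p = 0.0240), 1 of the 10 genes, among 1192 of all 13780. With an offset for the trend over transcript length Tgfbr1 was at 0.81 (SE 0.604, edgeR adjusted p = 0.622), and none of the 10 was called. In CPM, 3 of the 10 genes did not overlap between the WT stages, near the 34.8% of all genes that did not. The other 6 genes lay closer to 0: Smad3 at 0.58 (SE 0.682), Tgfbr2 at −0.42 (SE 0.573), Ski at −0.24 (SE 0.469), Smad2 at 0.14 (SE 0.231), Smad4 at 0.05 (SE 0.376) and Skil at −0.02 (SE 0.416).

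In Arpp21-/- cells the step from DN2 to DN3 looked different for Tgfbr1. Its log2 fold change was −0.14 (SE 0.296, edgeR adjusted p = 0.793), or 0.13 (SE 0.189) without the 2 libraries. It was 0.48 (SE 0.286) on log2(TPM + 1), where the median of all genes was 0.43. With the length-trend offset it was −1.37 (SE 0.662, edgeR adjusted p = 0.257). The test of the difference between the genotypes, the interaction of stage and genotype, gave −1.07 for Tgfbr1 (SE 0.397, edgeR adjusted p = 0.964, and 0.0219 unadjusted), and no gene was called (0% of 13780, with 373 at an unadjusted p under 0.05 and 10 called by DESeq2, none of the 10). Without knockout DN2 replicate 1 it was called, at −1.40 (edgeR adjusted p = 0.0196), as were 25% of all genes. With the length-trend offset the interaction for Tgfbr1 was −2.18 (SE 0.897, edgeR adjusted p = 0.952). Both stage comparisons and both genotype comparisons share libraries, so their values are not independent. Tgfb1 was lower in DN3 than DN2 knockout cells too, at −1.09 (SE 0.635, edgeR adjusted p = 0.356). Without the 2 libraries it was called, at −1.72 (SE 0.164, adjusted p = 0.000420), where 6.15% of genes were. That fit has 1 knockout DN2 library, at 157 CPM, against 44.6 and 51.1 CPM. Leaving out only knockout DN2 replicate 2 gave −1.96 for Tgfb1 (edgeR adjusted p = 0.00590, 3.6% of genes called), and leaving out only replicate 1 turned it to 1.16 (edgeR adjusted p = 0.0218, 46.1% of genes called). Smad7 was at −2.20 (SE 0.589, edgeR adjusted p = 0.0693) and Smad4 at 1.14 (SE 0.437, edgeR adjusted p = 0.188). Without the 2 libraries set apart these were −2.47 for Smad7 and 0.52 for Smad4. Smad7 was called by DESeq2 (adjusted p = 0.00491), 1 of the 10 genes, among 1600 of all 13780. It was also called by edgeR without WT DN2 replicate 1 (adjusted p = 0.0462, 3.63% of genes called) and without knockout DN3 replicate 3 (0.0439, 3.64%). In the fit of all libraries 595 genes (4.32%) were called, and none of the 10.

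Of the 10 genes, 8 have long transcripts, so their values in the 2 libraries were set beside those of genes of the same length. In knockout DN2 replicate 2, genes within 20% of the length of Tgfbr1 had a median of −1.91 on the log2(CPM + 0.5) scale against the mean of the other DN2 libraries, but Tgfbr1 was at 0.54. Smad7 (0.59), Skil (−0.54) and Smad2 (0.07) also stood above the medians of genes of their length, −1.35, −2.09 and −1.06. Of genes of similar length, 92.9% were below Tgfbr1, 89.0% below Smad7, 83.0% below Skil and 74.5% below Smad2. Tgfb1 went the other way, at −3.06 where genes of its length had a median of 0.33, and Tgfbr3 was at −4.31 against −2.03. Smad3 (−2.88 against −1.79) and Smad4 (−1.13 against −0.78) were also below their medians. Ski (−1.71 against −1.71) and Tgfbr2 (−2.49 against −2.07) were close to their length class. In knockout DN3 replicate 3, Tgfbr1 was at −0.22 against −0.95, and Tgfb1 again low at −1.03 against 0.12. The scales part for Tgfbr1. In TPM, knockout DN2 replicate 2 was the lowest library at 20.4 TPM, although in CPM it was the highest of DN2 at 208. The knockout DN3 libraries (47.9, 33.7 and 30.9 TPM) were below those of WT DN3 (89.5, 73.9 and 91.0 TPM) on this scale as well.

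**Figure D3:**
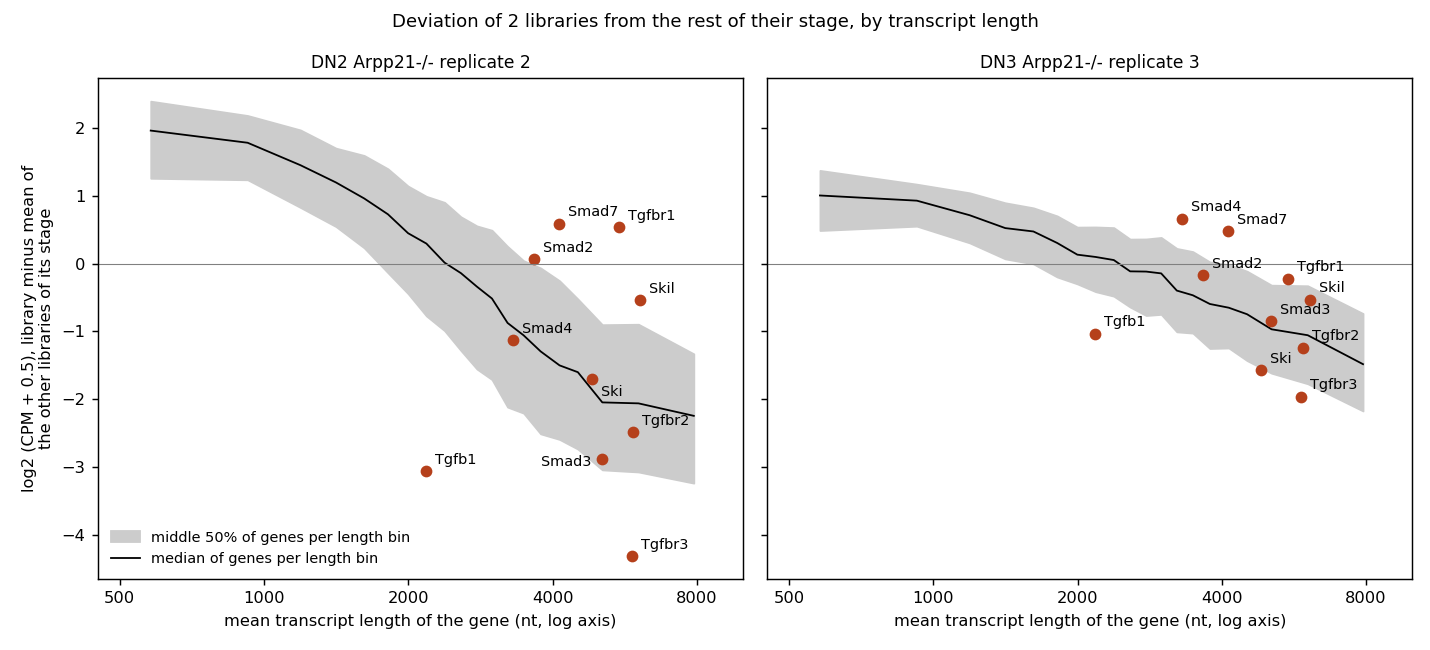
Deviation of the 2 libraries set apart from the mean of the other libraries of their stage (vertical axis, log2(CPM + 0.5)) against the mean transcript length of each gene (horizontal axis, nt, log scale). The line is the median and the band the middle 50% of genes in 20 length bins, and points are the 10 genes. Tgfbr1 lies above the band on the left (0.54) and Tgfb1 below it in both (−3.06 and −1.03).

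The genes whose levels ran most like Tgfbr1 over the 11 libraries were sought among 8509 others with a mean of at least 10 CPM. Lin7c, which encodes a scaffold protein of cell junctions, came first with a Pearson r of 0.980 of log2(CPM + 0.5), and remained first with 0.989 over the 9 libraries without the 2 set apart. The study names Lin7c, like Tgfbr1, among the mRNAs bound by Arpp21. The values of Lin7c follow. Its values were 141, 122 and 137 CPM in WT DN2 cells, 121 and 154 CPM in knockout DN2 cells, 228, 205 and 214 CPM in WT DN3 cells and 135, 119 and 147 CPM in knockout DN3 cells. As with Tgfbr1, the 3 WT DN3 libraries were above all the others, and knockout DN2 replicate 2 was the highest of the rest. Hsd11b1, the enzyme that regenerates active glucocorticoid, followed with 0.897, then Arl5b (0.858), Rtf2 (0.846) and Pgam2 (0.843). Over the 9 libraries without the 2 set apart these had r of 0.911, 0.862, 0.860 and 0.872. Their places there were only 15, 27, 28 and 25. Smad7, Ski and Skil were below the minimum of 10 CPM and were not compared. Of the members that were, Smad2 was nearest to Tgfbr1 (r = 0.422, place 382), and Tgfb1 was at −0.320. These correlations share libraries, depth and the length trend, and are given as a description.

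**Figure D4:**
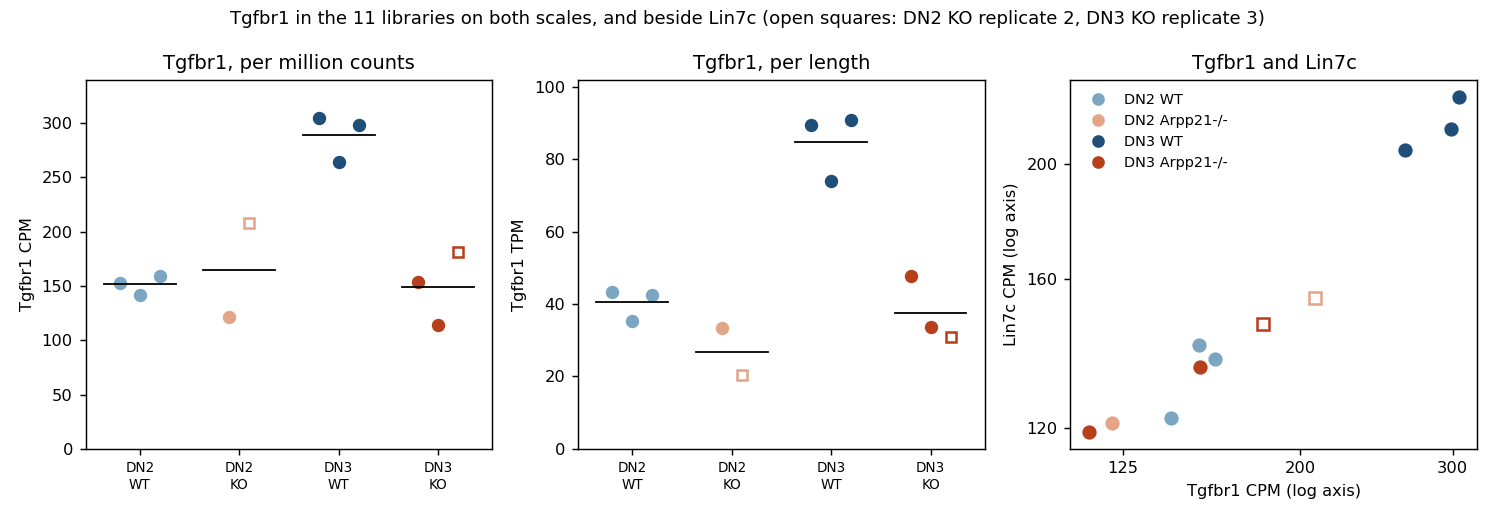
Tgfbr1 in the 11 libraries in CPM (left) and TPM (middle), both axes from 0, and Tgfbr1 against Lin7c in CPM on log axes (right). Points are libraries, lines group means and open squares the 2 libraries set apart. WT DN3 libraries are highest on both scales, and Lin7c orders the libraries much as Tgfbr1 does (r = 0.980).

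Around the 10 genes, 60 others of the pathway were listed by role, and 49 were tested. Between genotypes none was called in either stage by edgeR. Between WT DN2 and WT DN3 cells 2 were called, a share of the 49 equal to the 4.08% of all genes. Both are on the list of genes known to respond to TGF-β, and both were higher in DN3: Itgae and Id3, of 9 such genes tested. Both calls held without the 2 libraries set apart, but that of Itgae was lost when any 1 of the 6 WT libraries was left out (edgeR adjusted p of 0.0554 to 0.0829). Itgae, which encodes the integrin chain CD103, was at 0.479, 0.454 and 0.230 CPM in WT DN2 cells and 17.9, 16.4 and 20.2 CPM in WT DN3 cells, or 5.54 on the log2 scale (SE 1.06, edgeR adjusted p = 0.0166). In knockout DN3 it was at 6.23, 4.52 and 2.58 CPM. Every knockout library was below every WT library, and the test between genotypes was not passed (log2 fold change −2.03, SE 0.893, edgeR adjusted p = 1), although limma voom with library weights (−1.88, adjusted p = 0.00307) and DESeq2 on the DN3 libraries alone (−1.99, adjusted p = 4.16e-05) called it. Id3, an inhibitor of E proteins, rose from 11.3, 11.4 and 13.6 CPM in WT DN2 to 72.6, 74.6 and 78.4 CPM in WT DN3 cells (log2 fold change 2.64, SE 0.408, edgeR adjusted p = 0.00550). In Arpp21-/- cells it rose from 10.2 and 30.2 CPM to 66.5, 67.0 and 115 CPM (2.03, SE 0.463, edgeR adjusted p = 0.0374). That call was lost in 9 of the 11 fits that left out 1 library (edgeR adjusted p of 0.0577 to 0.0775). Its DN3 knockout values lay on both sides of the WT values. None of the 7 genes of ligand activation, 9 other receptors, 3 other Smads and 21 regulators and cofactors tested was called in any of the 5 comparisons by edgeR with all libraries. Without the 2 libraries set apart, 7 of the 49 were called between the WT stages, 3 higher and 4 lower in DN3, no larger a share than the 15.3% of all genes called in that fit.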

How the data were processed

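Total RNA of sorted thymocytes was made into SMART-Seq v4 and Nextera libraries from poly-A RNA and sequenced as paired 150 bp reads. Per the labels and file headers, the authors used kallisto 0.46 (GRCm38, Ensembl 101) and deposited, for 119414 transcripts per library, estimated counts, TPM and effective lengths. Such values share reads between transcripts by a model, so single transcript shares are uncertain where transcripts overlap. Estimated counts were summed per gene with GENCODE M21 (116728 transcripts matched, about 99% of counts) and rounded. Depth was 14531762 to 63109504 counts, and 3 counts are 0.0802 to 0.242 CPM, which covers counting error only. Genes were filtered with filterByExpr (minimum count 10, minimum total 15), scaled by TMM and tested in edgeR 4.0.16 (R 4.3.3) by the two-sided quasi-likelihood test over all 11 libraries in 4 groups, with Benjamini-Hochberg adjustment and a threshold of 0.05. SE was taken as the size of the log2 change over the root of its F statistic. In this fit the median log2 fold change of all genes was −0.057 to 0.028 over the 5 comparisons. Alternatives used DESeq2 1.42.0, limma 3.58.1 on log2(TPM + 1) or log2(TPM + 0.1) for genes with at least 1 TPM in 2 libraries, other filters, length offsets, fewer libraries and a replicate block. Scripts were tested on simulated counts. Groups came from the sample labels. The 10 genes, the pathway and marker lists, and the 2 libraries to leave out were chosen with earlier results of these data known. Pathway genes outside the 10 were named only if called (up to 4 in each direction and comparison), and the 5 genes most like Tgfbr1 by Pearson r. Of the gamma delta T cell list only Trdc, Sox13 and Zbtb16 were used here, with a sum of 139 to 294 CPM, most of it Trdc. The lists of DN2 cells, DP cells, cells after beta selection, thymic stroma and platelets summed to 418 to 3548, 43.5 to 501, 440 to 1192, 52.6 to 349 and 0 to 34.4 CPM.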

Additional observations from a re-analysis of the deposited data

How the results depend on the processing

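Of 787 recomputed log2 fold changes of the 33 named gene results (the 10 genes, Itgae and Id3), 700 kept their direction and side of the threshold, 39 turned direction, 28 became calls and 20 lost one. The value of Tgfbr1 in knockout against WT DN3 cells kept its direction in all 24 alternatives (log2 fold change −1.20 to −0.46). The smallest change, −0.46 with the length-trend offset, was within its SE of 0.602. Where a count or value below moved, the cause was not tested, except that fits of fewer libraries or other filters also test other numbers of genes.

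Counts of called genes moved most. Between genotypes in DN3 (1 gene), DESeq2 called 16, a length-trend offset 2, limma on log2(TPM + 0.1) 2, voom with library weights 118, DESeq2 on DN3 alone 49 and edgeR without both libraries set apart 5, while the average-length offset and edgeR on DN3 alone called 0, and leaving out 1 library gave 0 to 1. In DN2 (0 genes) DESeq2 called 38, and leaving out 1 library gave 0 to 6777, the highest without knockout DN2 replicate 1. For the interaction (0 genes) DESeq2 called 10, and leaving out 1 library gave 0 to 3664. Between WT stages (562 genes) DESeq2 called 1192, the length-trend offset 857, voom 2326, the WT libraries alone 1946, the fit without both libraries 2226, and leaving out 1 library 243 to 1080. Between knockout stages (595 genes) these were 1600, 911, 140, 0 (knockout libraries alone), 896 and 281 to 6754, and an adjusted p under 0.1 gave 993.

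Directions turned as follows, in log2 fold changes. In DN3 knockout against WT cells, Smad3 was 0.031 with the length-trend offset, 0.010 with voom and 0.020 without both libraries (−0.46 to 0.026 leaving out 1 library). Smad4 was −0.13 on log2(TPM + 1), −0.15 on log2(TPM + 0.1), −0.17 with voom and −0.016 without both libraries (−0.0091 to 0.46), and Skil 0.053 with the average-length and 0.13 with the length-trend offset. In DN2, Tgfbr1 was −0.61 and −0.63 on the TPM scales and −0.30 without both libraries (−0.30 to 0.45), and Smad7 −0.051, −0.074 and −0.033 (−0.13 to 0.61). Between WT stages, Skil was 0.035 and 0.063 on the TPM scales, 0.088 with voom and 0.0062 in the WT libraries alone (−0.27 to 0.32), and Smad4 ran from −0.14 to 0.22. Between knockout stages, Tgfbr1 was 0.48 and 0.49 on the TPM scales and 0.13 without both libraries (−0.47 to 0.27), and Tgfb1 0.11 and 0.19 on the TPM scales and 0.057 with voom (−1.96 to 1.16). On log2(TPM + 1) and log2(TPM + 0.1) the median of all genes was itself −0.21 and −0.25 between genotypes in DN3, −0.45 and −0.62 in DN2, 0.13 and 0.15 between WT stages, and 0.43 and 0.57 between knockout stages. Without knockout DN2 replicate 1 it was −0.26 between genotypes in DN2 and 0.38 between knockout stages. By estimated counts in place of TPM, the share of Smad3 in Smad2 plus Smad3 was 39.2% in WT DN2, 47.1% in WT DN3 and 46.5% in knockout DN3 cells.

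Whether replicate numbers pair the libraries could not be settled. Of 15 same-numbered pairs, 9 had a correlation of deviations over 0.1 (−0.45 to 0.53). Knockout DN2 has only 2 libraries, so their deviations mirror each other. Between WT DN2 and WT DN3, same-numbered pairs had 0.289, 0.0855 and 0.178, and differently numbered pairs −0.218 to 0.0657. With a replicate block, 0 genes were called between genotypes in DN3, Tgfbr1 there was −0.96, and Skil between WT stages was 0.041. With genotype and a replicate block, 216 genes were called between WT stages and 120 between knockout stages, and Skil between WT stages was 0.026. The call of Itgae between WT stages was lost under this block (edgeR adjusted p = 0.0696) and without any 1 of the 6 WT libraries (0.0554 to 0.0829). Id3 between knockout stages lost its call under either block (0.0636 and 0.120), with voom (0.430), in the knockout libraries alone (0.380) and without any 1 of 9 libraries (0.0577 to 0.0775).

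Depth limits the lowest levels most, with 12 estimated counts behind the lowest value of Tgfbr3, 26 behind that of Ski and 30 behind that of Smad7.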
